A study of Homo sapiens with 8 samples.

Results

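Cells grown from H1 human embryonic stem cells and treated with FGF8 and FGF10 were sorted on day 8 into Pdgfra-positive and Pdgfra-low populations, and the RNA of these sorted populations was compared across all genes. The comparison uses 4 of the 8 RNA-seq libraries of the series, chosen by their labels alone: 2 of Msx1+Pdgfra+ cells and 2 of Msx1+Pdgfralow cells, all from the FGF8+10 arm. Of 61209 gene names in the deposited table, 22554 had enough reads to be tested. The other 4 libraries, the same 2 sorted populations from the Mock arm, serve as the reference for asking whether a difference between the populations also appears under Mock.

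All 8 libraries come from the same reporter line, H1 carrying Msx1-P2A-tdTomato, in which the red fluorescent protein tdTomato is made from the MSX1 locus, so every group is MSX1-reporter positive and all groups come from a single cell line. Every group also shared the early steps. On day 0 the medium held 50 ng/mL Activin A, 40 ng/mL BMP4, 10 ng/mL FGF2 and 6 μM of CHIR99021, which inhibits GSK3 and so raises WNT signalling; from day 1 it held 60 ng/mL BMP4 and 1 μM CHIR99021 for 3 days. On day 4 the cells were dissociated and spun down at 25000 cells per well in low-adhesion plates. The FGF8+10 groups received 500 ng/mL of each FGF, and the labels do not say what the Mock wells contained. The labels call the replicates biological without saying whether they are separate differentiations or separate sorts, so p-values here measure the spread between these libraries only.

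Limb bud mesenchyme arises from lateral plate mesoderm. In the embryo, FGF10 from the mesenchyme and FGF8 from the overlying ectodermal ridge keep each other switched on, and FGF receptors signal through ERK to ETV factors and to the feedback inhibitors of the Sprouty and DUSP families. PDGFRA, the receptor for PDGF-A and PDGF-C, marks much of the mesenchyme of the early embryo, while cells with little of it include endothelium, which derives from the same lateral plate and is recognised by VE-cadherin (CDH5), PECAM1 and TIE1.

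The FGF8+10 libraries held 63912334 and 64390444 counts in Pdgfra-positive cells and 49790227 and 55329666 in Pdgfra-low cells. Expression is given as CPM, each gene's counts per 1e+06 counts of a library scaled by edgeR's TMM method, 1 value per library, and differences as log2(Pdgfra-positive/Pdgfra-low) ± the standard error of the fit, so that a negative value means higher in Pdgfra-low cells. Genes are called at an adjusted p below 0.05 (edgeR quasi-likelihood test, Benjamini-Hochberg over 22554 genes). Replicates differed little, with a common biological coefficient of variation of 4.06%, which makes small differences callable. Because bulk RNA was measured, fewer cells of a type and less RNA per cell cannot be told apart.

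The genes used for sorting were read first. PDGFRA (chr4:54229280-54298245, GRCh38) measured 712 and 716 CPM in the Pdgfra-positive libraries and 279 and 292 CPM in the Pdgfra-low libraries, which matches the labels and is not a finding, since the cells were gated on it. MSX1, the other gate, measured 51.5 and 49.1 CPM against 52.8 and 48.6 CPM. The MSX1 values overlap (log2 difference -0.01 ± 0.055, adjusted p = 0.909). PDGFRA RNA in Pdgfra-low cells was thus reduced and still well above the level that 6 counts correspond to in any library, 0.0883 to 0.134 CPM.

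Across the transcriptome, 4430 genes (19.6% of those tested) were called higher in Pdgfra-positive cells and 4905 (21.7%) lower. Most of these differences were small. At least 2-fold differences numbered 705 higher (3.13%) and 735 lower (3.26%). The libraries of the populations did not overlap for 33.8% of genes in the positive-above direction and 33.4% in the other. The large differences lay on the Pdgfra-low side: among genes of at least 10 CPM in their higher population, 34 were at least 4-fold lower in Pdgfra-positive cells and 4 were at least 4-fold higher, and at 8-fold the counts were 11 and 0. Between 1 and 10 CPM, 39 genes were at least 8-fold lower and 0 at least 8-fold higher. Of the genes at least 2-fold different by the fitted value, 39 of the 705 and 31 of the 735 had 0 counts in the lower population and were all under 1 CPM in the other. With these genes set to the bound that a floor of 6 counts over the group allows, 682 were at least 2-fold higher and 723 at least 2-fold lower.

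Most of the 2-fold differences were not called in the same direction under Mock, though most had the same sign there. Of the 705 genes at least 2-fold higher, 254 (36.0%) were called higher under Mock as well, 17 were called lower and 434 were not called. Called or not, 567 of the 705 had a positive Mock difference, with a median of 0.39 over the 705. The difference of the populations was called different between the arms for 5862 genes (26%) over the whole table, 12% towards a higher and 14% towards a lower value under FGF8+10. Among the 705, the difference was called larger under FGF8+10 than under Mock for 321 of the 324 with a called interaction (interaction term of the same fit). Genes at least 2-fold different were chosen by their FGF8+10 difference, which the interaction also uses. This choice by itself favours a larger difference under FGF8+10. Of the 735 lower genes, 279 (38.0%) were called lower under Mock, 63 were called higher, and for 363 the difference was called larger under FGF8+10. A negative Mock difference, called or not, was found for 524 of the 735, with a median of -0.48 over the 735. Under Mock itself, 368 genes (1.63%) were called at least 2-fold higher and 507 (2.25%) at least 2-fold lower, and 12.4% and 13.4% were called in these directions at any fold. The genes at least 2-fold lower in both arms numbered 183, which is 24.9% of the FGF8+10 set and 36.1% of the Mock set, against 70 at least 2-fold higher in both, 9.93% and 19% of the respective sets. Across genes, which are not independent replicates, the 2 sets of differences had a Pearson correlation of 0.23.

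**Figure D1:**
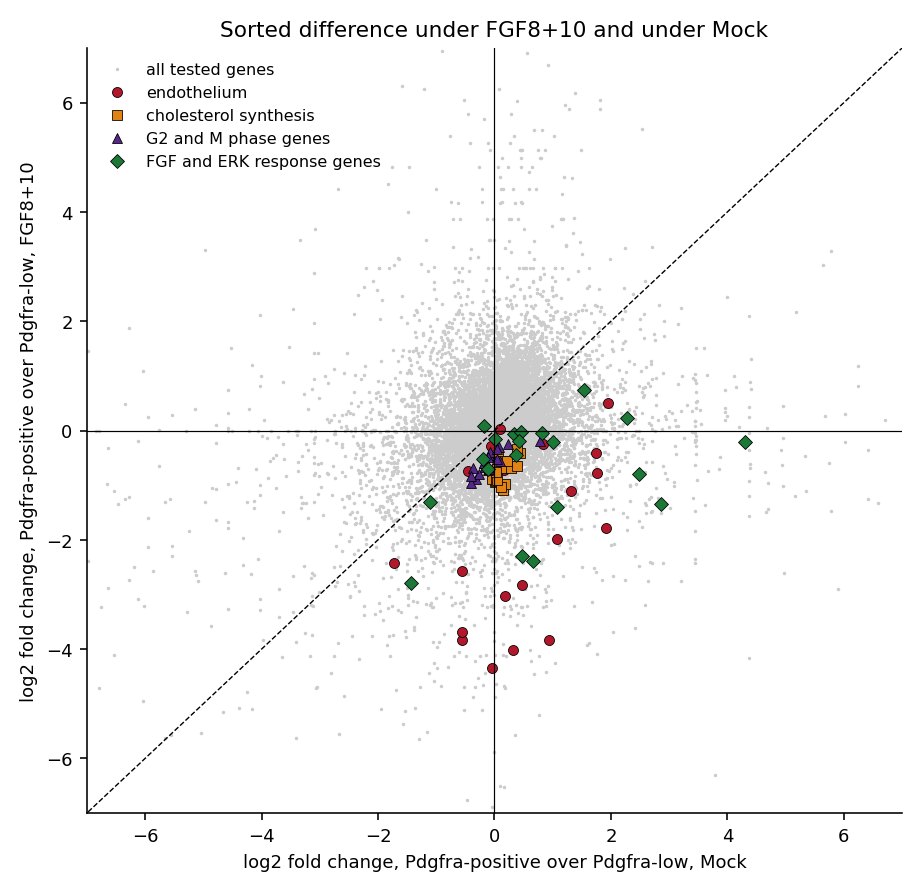
Each point is a tested gene; the horizontal axis is the log2 difference Pdgfra-positive minus Pdgfra-low under Mock and the vertical axis the same difference under FGF8+10, with 4 gene lists in colour, a dashed line of equal difference and 23 genes beyond the axis limits of 7 not shown. The endothelial genes reach furthest down the vertical axis while scattered around 0 on the horizontal one, and the cholesterol genes all lie below 0 on the vertical axis.

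Endothelial markers were lower in Pdgfra-positive cells. Of 20 endothelial markers, all tested, 17 were lower in Pdgfra-positive cells, 12 of them by at least 2-fold, and 1 was higher, with a median log2 difference of -1.88 against 0.011 for all tested genes. CDH5, the junctional VE-cadherin, measured 1.05 and 1.72 CPM in Pdgfra-positive and 19.4 and 20.2 CPM in Pdgfra-low libraries. Both Pdgfra-low libraries were more than 10 times above both Pdgfra-positive libraries (log2 difference -3.83 ± 0.18, adjusted p = 1.79e-22). ESAM, an endothelial tight junction adhesion protein, stood at 1.07 and 0.942 CPM against 16.2 and 16.5 CPM (-4.02 ± 0.18, adjusted p = 1.44e-23). TIE1, an endothelial receptor tyrosine kinase, stood at 1.98 and 1.56 CPM against 14.7 and 14.3 CPM (-3.03 ± 0.16, adjusted p = 1.25e-20). The groups did not overlap for either gene. PECAM1, an adhesion molecule of endothelial junctions, gave 2.09 and 3.11 CPM against 19.4 and 17.5 CPM (-2.83 ± 0.16, adjusted p = 6.21e-20). TAL1, a transcription factor of blood and endothelial progenitors, was low in absolute terms, 0.267 and 0.118 CPM against 3.45 and 4.45 CPM, and again separated the populations (-4.35 ± 0.37, adjusted p = 1.03e-13).

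Transcription factors of the endothelial programme followed with smaller differences. ERG, an ETS factor that maintains endothelial identity, measured 23.2 and 21.3 CPM in Pdgfra-positive and 48.7 and 46.7 CPM in Pdgfra-low libraries (-1.10 ± 0.07, adjusted p = 5.75e-18). SOX7 and SOX18, SOXF factors of vessel formation, differed by -1.78 ± 0.17 and -1.98 ± 0.22. FLI1, another ETS factor, was the member that was higher in Pdgfra-positive cells, at 184 and 185 CPM against 131 CPM in each (0.50 ± 0.035, adjusted p = 2.58e-16). Some receptors were present at high levels in both populations. KDR, the main VEGF receptor, measured 1609.5 and 1609.6 CPM against 1968 and 1970.0 CPM, a log2 difference of -0.29. FLT1, the decoy VEGF receptor, differed by -0.74. TEK, the angiopoietin receptor, measured 485 and 496 CPM against 480.0 and 486 CPM and overlapped between the populations (0.02 ± 0.023, adjusted p = 0.467), although scaling by the upper quartile put it past the threshold at 0.077. The 20 markers summed to 2539 to 2551 CPM in Pdgfra-positive and 3088 to 3097 CPM in Pdgfra-low libraries, a sum to which KDR and TEK contribute most.

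Under Mock the endothelial markers did not show this pattern: 9 were higher and 2 lower in Pdgfra-positive cells, the median log2 difference was 0.25, and for 16 of 20 the difference was called lower under FGF8+10 than under Mock (background for the interaction in that direction, 14%). ESAM measured 0.919 and 0.872 CPM in Mock Pdgfra-positive and 0.772 and 0.662 CPM in Mock Pdgfra-low libraries, so all 4 Mock libraries sat near the FGF8+10 Pdgfra-positive level. ESAM differed by 0.32 ± 0.25 under Mock (adjusted p = 0.414), and the difference of differences was -4.34 ± 0.32 (adjusted p = 2.46e-15). For SOX7 the sign turned: 1.41 and 1.22 CPM in Mock Pdgfra-positive against 0.411 and 0.281 CPM in Mock Pdgfra-low libraries, a log2 difference of 1.92 ± 0.28 (adjusted p = 4.40e-07; interaction -3.70 ± 0.33, adjusted p = 9.80e-13). ERG turned in the same way, with 1.32 ± 0.087 under Mock and an interaction of -2.42 ± 0.11 (adjusted p = 3.31e-22).

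**Figure D2:**
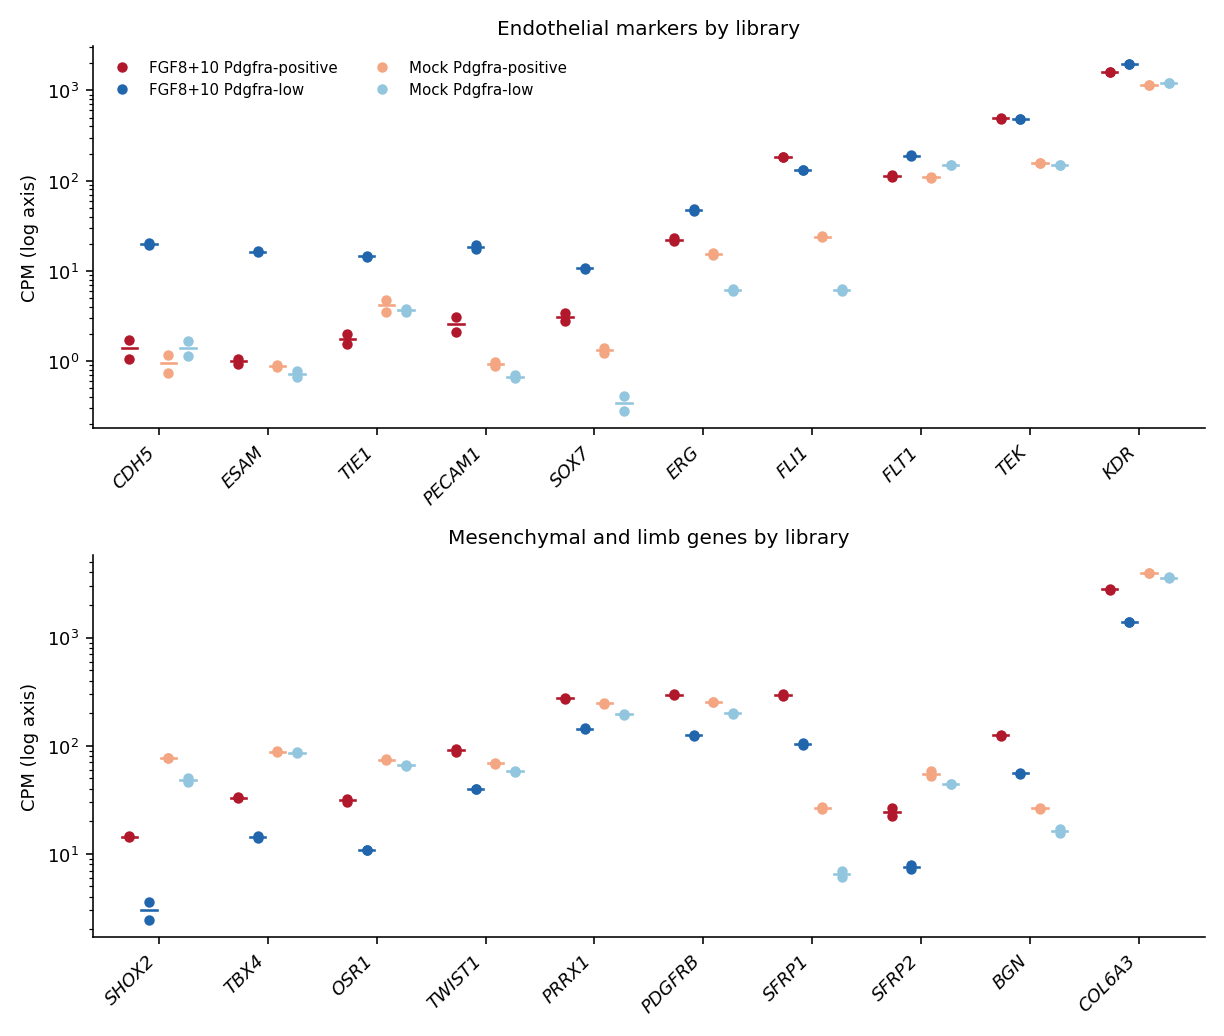
Expression in CPM (log axis) of endothelial markers (upper panel) and of mesenchymal and limb genes (lower panel) in each of the 8 libraries; dots are libraries and bars are group means. CDH5, ESAM, TIE1 and PECAM1 reach 14.3 to 20.2 CPM in the FGF8+10 Pdgfra-low libraries and stay below 5 CPM in the other 6 libraries, whereas SHOX2, TBX4 and OSR1 are higher in Mock than in either FGF8+10 population.

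Markers of lymphatic and liver-type endothelium behaved alike where they were scavenger receptors and differently for PROX1. Of 7 genes, 5 were lower and 1 higher in Pdgfra-positive cells. STAB1, a scavenger receptor, measured 0.267 and 0.118 CPM against 6.85 and 6.74 CPM (-5.13 ± 0.31, adjusted p = 1.25e-18), and MRC1, the macrophage mannose receptor that sinusoidal endothelium also carries, 1.10 and 1.02 CPM against 6.62 and 7.57 CPM (-2.75 ± 0.24, adjusted p = 1.48e-13). The populations did not overlap for either gene. FLT4, the VEGF-C receptor, differed by -1.76 ± 0.15. PROX1, a homeobox factor of lymphatic endothelium and of several other tissues, went the other way, 58.2 and 58 CPM against 32.2 and 33.2 CPM (0.83 ± 0.06, adjusted p = 5.63e-16).

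The 15 genes of at least 10 CPM with the largest negative fold included CDH5, ESAM, TIE1 and PECAM1. Of the others, GIMAP4, a GTPase of the immunity-associated family, stood at 1.01 and 0.721 CPM in Pdgfra-positive and 10.1 and 11.1 CPM in Pdgfra-low libraries (-3.61 ± 0.21, adjusted p = 4.88e-19). APLNR, the apelin receptor, differed by -3.55, MMRN2, an endothelial matrix protein, by -3.05, and CD34, a sialomucin of endothelial and blood progenitor cells, by -2.85. CAVIN1, the coat protein of caveolae, differed by -3.22, DYSF, a membrane repair protein, by -2.61, SHE, an SH2 domain protein, by -2.59, AQP1, a water channel, by -3.04, and GAP43, a protein of growing axons, by -3.32.

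The largest negative fold of that set was that of LRP2, a gene of none of the marker lists. LRP2 (chr2:169127109-169362534), the endocytic receptor megalin, measured 0.370 and 0.412 CPM in Pdgfra-positive and 14.1 and 13.7 CPM in Pdgfra-low libraries (-5.14 ± 0.20, adjusted p = 7.81e-26). PODXL, a sialomucin of podocytes, vessels and mesothelium, measured 2.1 and 1.94 CPM against 25.6 and 22.7 CPM (-3.57 ± 0.074, adjusted p = 1.44e-32). These 2 genes also separated the Mock populations: LRP2 stood at 0.381 and 0.208 CPM against 7.47 and 7.36 CPM under Mock, with no called difference between the arms (-0.48 ± 0.39, adjusted p = 0.433), and PODXL at 30.5 and 27.5 CPM against 862 and 838 CPM. AQP1 was likewise lower in Mock Pdgfra-positive cells (-2.49 ± 0.052).

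Markers of other cell types that the Pdgfra-low gate could hold gave the following. Simple epithelial genes summed to 474 to 477.7 CPM in Pdgfra-positive and 1296 to 1304 CPM in Pdgfra-low libraries, and 5 of the 9 tested were lower, 0 higher. The Mock arm split the same way, at 666.7 to 667.7 CPM against 1132 to 1137 CPM, with 4 lower and 0 higher. KRT8, a keratin of simple epithelia, measured 173 and 171 CPM against 745 and 729 CPM (-2.1 ± 0.024, adjusted p = 1.12e-45), and its partner KRT18 differed by -1.65 ± 0.033. Both keratins have many processed copies in the genome, so their counts are uncertain where reads were ambiguous. The defining epithelial junction genes CDH1 and EPCAM were low, at 0.0296 and 0.0883 CPM against 0.0377 and 0.0341 CPM and 0.637 and 1.10 CPM against 1.06 and 0.870 CPM. Mesothelial and epicardial genes summed to 454.5 to 456.3 CPM against 609.6 to 617.7 CPM, with 8 of 13 lower and 2 higher (1 higher without the first Pdgfra-low or the second Pdgfra-positive library), and WT1 was at 0.0888 and 0.147 CPM against 0.415 and 0.375 CPM. TBX18, a T-box factor of the epicardium and of limb mesenchyme, differed by -1.05 ± 0.12. In the Mock arm the mesothelial and epicardial genes summed to 645 to 645.5 CPM against 1744 to 1771 CPM, with 8 lower and 0 higher.

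Blood was barely represented: PTPRC, HBE1, HBZ and HBG1 had too few reads to be tested, and RUNX1 measured 0.296 and 0.442 CPM against 1.94 and 1.64 CPM. Of 10 pluripotency genes 7 were tested, 1 was higher (14.3%) and 3 were lower (42.9%), while POU5F1, NANOG and UTF1 had too few reads. Among tested genes of at least 10 CPM, 30.1% were higher and 38.6% lower. The tested pluripotency genes summed to 409.4 to 413 CPM against 505.4 to 510.6 CPM. Neural crest, somite, endoderm and kidney lists mostly had too few reads to be tested, with 4 of 12, 4 of 11, 3 of 9 and 3 of 8 genes tested. Mural cell genes split, 4 higher (50.0%) and 3 lower (37.5%) of 8, against 30.1% and 38.6% of tested genes of at least 10 CPM. PDGFRB, the receptor of pericytes and mesenchyme, measured 294 and 298 CPM against 127 and 124 CPM (1.24 ± 0.027), and RGS5, a regulator of G protein signalling in pericytes, 275 and 283 CPM against 482 and 485 CPM (-0.79 ± 0.025). Smooth muscle genes were lower for 5 (45.5%) and higher for 1 (9.1%) of 11, against 38.6% and 30.1% of tested genes of at least 10 CPM. Among them were TAGLN (-1.46 ± 0.097) on the lower and DES (1.35 ± 0.17) on the higher side. Without the first Pdgfra-low library 3 smooth muscle genes were lower and 2 higher. What part admixed endothelial, mesothelial or keratin-positive cells have in the other differences between the populations was not tested.

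**Figure D3:**
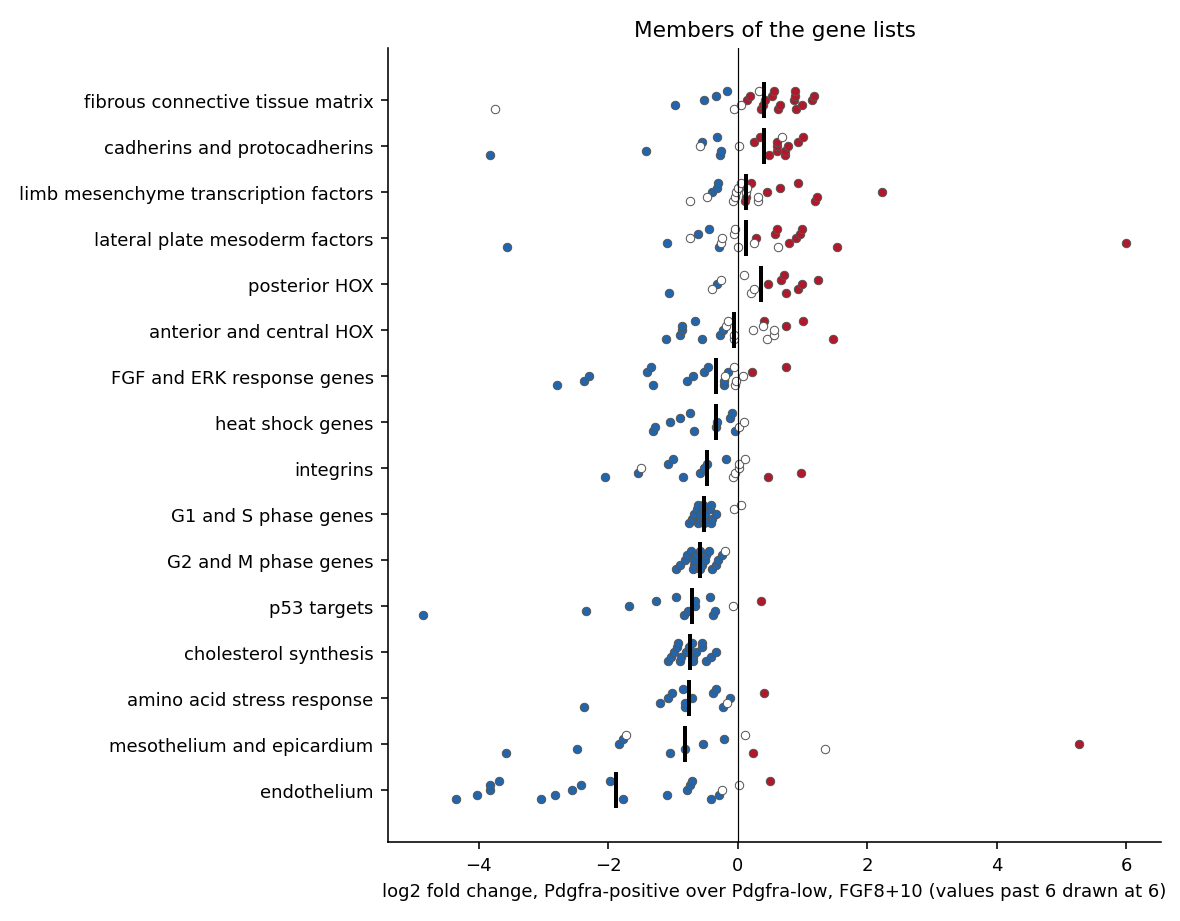
Log2 difference Pdgfra-positive minus Pdgfra-low under FGF8+10 for the members of each gene list, 1 circle per tested gene; red circles were called higher, blue circles called lower and white circles not called, the black bar is the list median, and OSR2 beyond 6 is drawn at 6. Cholesterol synthesis (median -0.73) and G2 and M phase genes (median -0.59) lie wholly below 0, endothelium has the lowest median of the lists drawn, -1.88, and fibrous matrix lies mostly above 0, median 0.40.

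On the Pdgfra-positive side the limb and lateral plate transcription factors gave a mixed picture with a few strong members. Of 31 limb mesenchyme factors 23 were tested, 9 were higher and 3 lower, and the median log2 difference was 0.12. Among all 10179 tested genes of at least 10 CPM, 30.1% were higher and 38.6% lower, with a median of -0.036. SHOX2 (chr3:158095905-158106420), a homeobox factor needed for the proximal limb skeleton, measured 14.5 and 14.3 CPM in Pdgfra-positive and 2.45 and 3.62 CPM in Pdgfra-low libraries. It had the largest positive fold of the genes with a symbol and at least 10 CPM (2.23 ± 0.098, adjusted p = 1.73e-23), and the populations did not overlap. TBX4, the T-box factor of the hindlimb field, measured 33.7 and 32.5 CPM against 14.6 and 13.9 CPM (1.22 ± 0.056, adjusted p = 5.27e-23). TWIST1, a bHLH factor of mesenchyme, measured 93.6 and 88.3 CPM against 40.0 CPM in each (1.19 ± 0.044, adjusted p = 3.88e-26), and PRRX1, the paired-type homeobox factor that marks limb mesenchyme, 273 and 274 CPM against 142 and 147 CPM (0.92 ± 0.027, adjusted p = 6.39e-30). All 4 genes were higher in both Pdgfra-positive libraries.

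Smaller differences in the same direction were measured for MEIS1, a proximal limb factor (0.65 ± 0.045), and HAND2, which patterns the posterior limb bud (0.45 ± 0.024). PITX1, the hindlimb determinant, was lower in Pdgfra-positive cells, 63.2 and 62.5 CPM against 84.1 and 81.2 CPM (-0.39 ± 0.037, adjusted p = 2.65e-12), as were TBX2 (-0.32 ± 0.046) and MSX2 (-0.31 ± 0.10; not called without the first Pdgfra-low, at -0.09, or the second Pdgfra-positive library, at -0.24). TBX5, the forelimb determinant, was low in every library, 3.67 and 3.75 CPM against 2.38 and 3.58 CPM, and was not called (0.31 ± 0.20, adjusted p = 0.216), but was at 0.64 without the second Pdgfra-low library. Under Mock the same list had 9 higher and 7 lower members with a median of 0.03. For TBX4 the Mock populations differed by 0.03 ± 0.045 (adjusted p = 0.673) and the interaction was 1.19 ± 0.072 (adjusted p = 4.58e-18). The SHOX2 difference was called in both arms and was larger under FGF8+10 (Mock 0.66 ± 0.063, interaction 1.57 ± 0.12, adjusted p = 9.15e-15).

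Lateral plate factors were higher for 9 (40.9%) and lower for 5 (22.7%) of 22 tested genes, median 0.13. The shares were 30.1% and 38.6% of all tested genes of at least 10 CPM. OSR1, a zinc finger factor of lateral and intermediate mesoderm, measured 30.4 and 32 CPM against 10.8 CPM in each (1.53 ± 0.061, adjusted p = 3.98e-25). TBX20, TCF21 and GATA3, factors of cardiac, visceral and early mesoderm, differed by 0.99 ± 0.059, 0.97 ± 0.059 and 0.90 ± 0.061. On the other side stood HLX, a homeobox factor of visceral mesenchyme (-1.09 ± 0.16), BMP4 (-0.62 ± 0.04), and HAND1, an early lateral mesoderm bHLH factor, at 368 and 370.1 CPM against 503 and 502 CPM (-0.45 ± 0.022, adjusted p = 1.11e-21). OSR2 had 35 counts over the 2 Pdgfra-positive libraries and 0 over the 2 Pdgfra-low libraries. Setting the floor at 6 counts over the group, OSR2 was at least 4.81-fold higher, at a level of 0.259 CPM. SFRP5, a secreted WNT antagonist, had 22 counts against 0, at least 3.02-fold higher by the same floor, at 0.162 CPM. Both genes were thus near the floor in FGF8+10 cells, while each reached at least 10 CPM in a Mock population. The SFRP5 difference was negative under Mock.

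**Figure D4:**
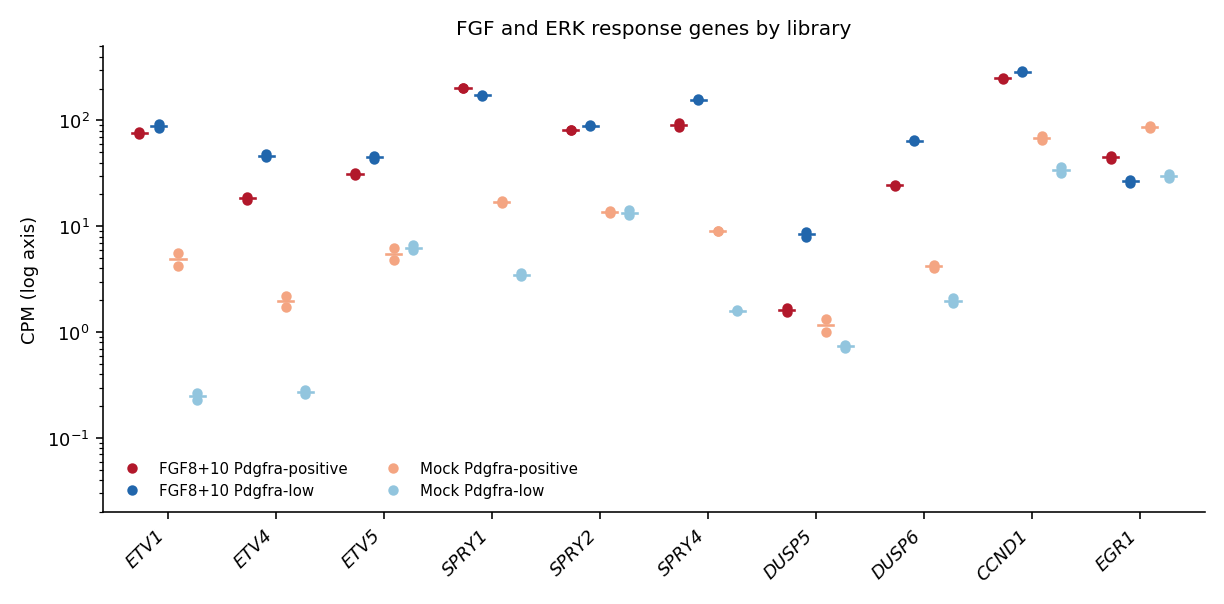
Expression in CPM (log axis) of FGF and ERK response genes in each of the 8 libraries; dots are libraries and bars are group means. ETV4 and DUSP6 are highest in the FGF8+10 Pdgfra-low libraries, 45.3 to 64.9 CPM, and ETV1, ETV4 and SPRY4 are lowest in the Mock Pdgfra-low libraries.

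Genes known to respond to FGF and ERK signalling were higher in the Pdgfra-low cells. Of 20 genes, all tested, 13 were lower in Pdgfra-positive cells and 2 higher, median -0.33. ETV4, an ETS factor induced by FGF, measured 19 and 17.9 CPM in Pdgfra-positive and 45.3 and 47.7 CPM in Pdgfra-low libraries (-1.34 ± 0.08, adjusted p = 9.50e-19). DUSP6, the phosphatase that switches off ERK, measured 24 and 24.7 CPM against 64.3 and 64.9 CPM (-1.41 ± 0.067, adjusted p = 1.99e-22). Each Pdgfra-low library stood more than 2-fold above each Pdgfra-positive library for both genes. SPRY4, a Sprouty feedback inhibitor, measured 87.1 and 94.2 CPM against 158 and 155 CPM (-0.79 ± 0.042, adjusted p = 1.11e-20). DUSP5 (-2.38 ± 0.20), DUSP4 (-1.31 ± 0.093) and FOSL1 (-2.80 ± 0.47), further ERK targets, were lower by more than 2-fold. ETV5 differed by -0.52 ± 0.073.

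ETV1, the third member of the PEA3 family, measured 78.5 and 75 CPM against 92.3 and 85 CPM, and its call was lost without the first Pdgfra-low library (-0.21 ± 0.054 with it, -0.15 without it). The 2 members on the other side were EGR1, an immediate early factor (0.74 ± 0.056), and SPRY1, at 201 and 202 CPM against 174 and 171 CPM (0.23 ± 0.034, adjusted p = 2.29e-07). Under Mock the list turned over: 12 genes were higher and 1 lower in Pdgfra-positive cells, median 0.46. For 14 of 20 the difference was called lower under FGF8+10 than under Mock, and for 0 higher. ETV4 measured 1.75 and 2.22 CPM in Mock Pdgfra-positive and 0.263 and 0.281 CPM in Mock Pdgfra-low libraries, a log2 difference of 2.86 ± 0.24 (adjusted p = 9.48e-14; interaction -4.20 ± 0.24, adjusted p = 1.05e-18). SPRY4 turned from 2.49 under Mock to -0.79 (interaction -3.28 ± 0.11, adjusted p = 2.04e-27), and DUSP6 from 1.08 to -1.41 (interaction -2.48 ± 0.14, adjusted p = 6.34e-19). DUSP4 was lower in Pdgfra-positive cells of both arms (-1.10 under Mock).

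FGF receptors and ligands did not follow the response genes. Of 20 FGF ligands and receptors, 15 were tested, 8 were higher in Pdgfra-positive cells and 3 lower. FGFR2, whose mesenchymal and epithelial splice forms bind different FGFs, measured 266 and 275 CPM against 147 and 145 CPM (0.89 ± 0.022, adjusted p = 2.26e-33). FGFR1 measured 361 and 362 CPM against 304 and 296 CPM (0.27 ± 0.029, adjusted p = 8.78e-11), and FGFR3 11 and 10.8 CPM against 18 and 19.6 CPM in the other direction (-0.79 ± 0.058, adjusted p = 1.04e-15). The gene table does not separate splice forms. FGF10, the mesenchymal ligand, was 44.4 and 45.9 CPM against 33.8 and 34.1 CPM (0.41 ± 0.068, adjusted p = 2.14e-06). FGF9 (1.47 ± 0.18) and FGF7 (0.65 ± 0.039) were also higher, and FGF8 had too few reads to be tested. Under Mock FGFR2 differed by -0.09 ± 0.02 and FGF10 by -0.01 ± 0.13.

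Fibrous matrix genes were mostly higher in Pdgfra-positive cells. Of 25 genes, 24 were tested, 16 were higher and 4 lower, median 0.40. COL3A1, type III collagen, took 2.50% and 2.52% of all counts in the Pdgfra-positive libraries, and measured 23666 and 23848 CPM against 15191 and 15086 CPM (0.65 ± 0.011). COL6A3, a chain of the microfibrillar type VI collagen, measured 2815 and 2762 CPM against 1395 and 1401 CPM (1.00 ± 0.017, adjusted p = 2.17e-39). Its partner chains COL6A1 and COL6A2 differed by 0.89 ± 0.016 and 0.90 ± 0.016. BGN and DCN, small leucine-rich proteoglycans, measured 126 and 124 CPM against 54.8 and 55.9 CPM (1.18 ± 0.045) and 216 and 217 CPM against 95.7 and 99.8 CPM (1.15 ± 0.021). These genes were higher in both Pdgfra-positive libraries. COL12A1 (-0.97 ± 0.17) and FMOD (-0.53 ± 0.06) were lower. In the Mock arm 15 of the 24 genes were also called higher and 5 lower, median 0.16. The interaction was called positive for 15 of the 24 and negative for 6. DCN differed by 0.02 ± 0.018 and COL6A3 by 0.15 ± 0.016 under Mock.

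Integrins moved against the matrix genes, with 9 lower and 2 higher of 17 and a median of -0.48. The 2 higher became 1 without either Pdgfra-positive library or without the second Pdgfra-low library. ITGA3, a laminin receptor chain, measured 12 and 10.5 CPM against 47 and 45.7 CPM (-2.04 ± 0.085, adjusted p = 1.73e-24). ITGB1, the common beta chain, measured 1203 and 1218 CPM against 1675 and 1691 CPM (-0.48 ± 0.019, adjusted p = 3.90e-25). Both were higher in both Pdgfra-low libraries. Basement membrane genes had 8 higher (40.0%) and 6 lower (30.0%) of 20, against 30.1% and 38.6% of tested genes of at least 10 CPM. COL4A6 (0.53 ± 0.021) and LAMB2 (0.51 ± 0.022) were on the higher side. COL15A1 (-2.03 ± 0.066) and LAMA4, a laminin chain of vessel walls (-1.04 ± 0.34), were on the lower. The LAMA4 call was lost without the first library of either population (-0.95 and -0.79).

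Cadherins were higher for 11 (55.0%) and lower for 6 (30.0%) of 20, against 30.1% and 38.6% of tested genes of at least 10 CPM. Their median was 0.41. CDH2, N-cadherin, measured 876 and 897 CPM against 526 and 541 CPM (0.73 ± 0.023, adjusted p = 5.49e-29), and CDH13, a GPI-anchored cadherin, 483 and 481 CPM against 240.0 and 239.6 CPM (1.01 ± 0.028, adjusted p = 8.76e-31). Neither gene overlapped. CDH13 differed more under Mock, 24.3 and 24 CPM against 1.59 and 1.17 CPM (4.12 ± 0.076), whereas CDH2 differed by 0.10 ± 0.027 there. Among proteases and inhibitors, 8 of 18 were higher (44.4%) and 4 lower (22.2%), against 30.1% and 38.6% of tested genes of at least 10 CPM. ADAMTS5, an aggrecanase, measured 26.1 and 25.3 CPM against 6.94 and 7.35 CPM (1.85 ± 0.062, adjusted p = 4.93e-28), above both Pdgfra-low libraries by more than 3-fold.

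Cartilage genes split 6 to 6 among 18 tested (33.3% each). The shares higher and lower were 19.6% and 21.7% of all tested genes, and 30.1% and 38.6% of those of at least 10 CPM. The regulators SOX5 (0.98 ± 0.062) and SOX6 (0.69 ± 0.039) were higher in Pdgfra-positive cells, while SOX9, which acts upstream of them, was lower (-0.43 ± 0.088). HAPLN1, the link protein that joins aggrecan to hyaluronan, measured 239 and 231 CPM against 781 and 762 CPM (-1.72 ± 0.021, adjusted p = 2.45e-44). The Pdgfra-low libraries were each more than 3-fold above the Pdgfra-positive ones. Under Mock HAPLN1 measured 1221 and 1245 CPM against 1276 and 1268 CPM and was not called (-0.05 ± 0.02, adjusted p = 0.0972; interaction -1.67 ± 0.029, adjusted p = 1.29e-37). COL11A1 (-0.72 ± 0.023), MATN3 (-1.12 ± 0.14) and ACAN, the main cartilage proteoglycan (-0.68 ± 0.15), were lower in Pdgfra-positive cells.

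The HOX clusters differed in direction from each other. HOX proteins set position along the body axis and, in the limb, along the shoulder-to-finger axis, where posterior HOXA and HOXD genes act. Of 8 tested HOXD genes, 7 were higher in Pdgfra-positive cells (6 with DESeq2) and 0 lower, median 0.84. Of 9 HOXB genes, 8 were lower and 1 higher, median -0.67. Among 11 HOXA genes 1 was called, HOXA13, and of 7 HOXC genes 2 were higher and 2 lower. HOXD9 measured 54.8 and 53.9 CPM against 28.7 and 25.8 CPM (1.00 ± 0.068, adjusted p = 6.79e-17), and HOXD10 84 and 81.8 CPM against 43.8 and 43.1 CPM (0.93 ± 0.05, adjusted p = 1.63e-20). HOXD13, of the digit region, measured 15.2 and 14.1 CPM against 8.77 and 8.75 CPM (0.74 ± 0.11, adjusted p = 1.15e-07). All 3 were higher in both Pdgfra-positive libraries.

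HOXB2 measured 10.8 and 11.1 CPM against 24.7 and 22.8 CPM (-1.12 ± 0.10, adjusted p = 4.97e-13) and HOXB6 25.5 and 23.2 CPM against 43.2 and 44.9 CPM (-0.86 ± 0.075, adjusted p = 2.37e-13). HOXB13, at the posterior end of its cluster, was the exception, 52 and 51.2 CPM against 33 and 31.6 CPM (0.68 ± 0.051, adjusted p = 1.94e-15). HOXA13, the other autopod gene, measured 71 and 70.4 CPM against 51.9 and 50.8 CPM (0.46 ± 0.038, adjusted p = 4.88e-14). Within HOXC the called genes lay on both sides of 0, HOXC4 at 0.74 ± 0.053 and HOXC5 at 1.01 ± 0.28 above it, HOXC8 at -0.56 ± 0.061 and HOXC10 at -1.07 ± 0.18 below it. Without the first Pdgfra-positive or the first Pdgfra-low library, 1 HOXC gene was called higher, and without either Pdgfra-low library 2 HOXA genes were. Under Mock 4 of the 8 HOXD genes were called higher and 0 lower, with a median of 0.56. HOXD9 and HOXD10 differed there by 1.06 ± 0.082 and 0.94 ± 0.058, HOXD13 by 0.46 ± 0.12, and HOXD3 and HOXD12, both under 3 CPM in FGF8+10 cells, by 0.66 and 0.42 against 1.47 and 1.24 under FGF8+10. No interaction of a HOXD gene was called, with adjusted p from 0.196 for HOXD13 to 0.974 for HOXD11. HOXB genes differed less in the Mock arm, with 3 of 9 lower and 2 higher, median -0.17. HOXB9 was called higher there (0.20 ± 0.052). The interaction was called negative for HOXB3, HOXB6, HOXB8 and HOXB9 and positive for HOXB13. Counting did not use strand, so reads of these genes and of antisense transcripts in the clusters cannot be told apart.

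**Figure D5:**
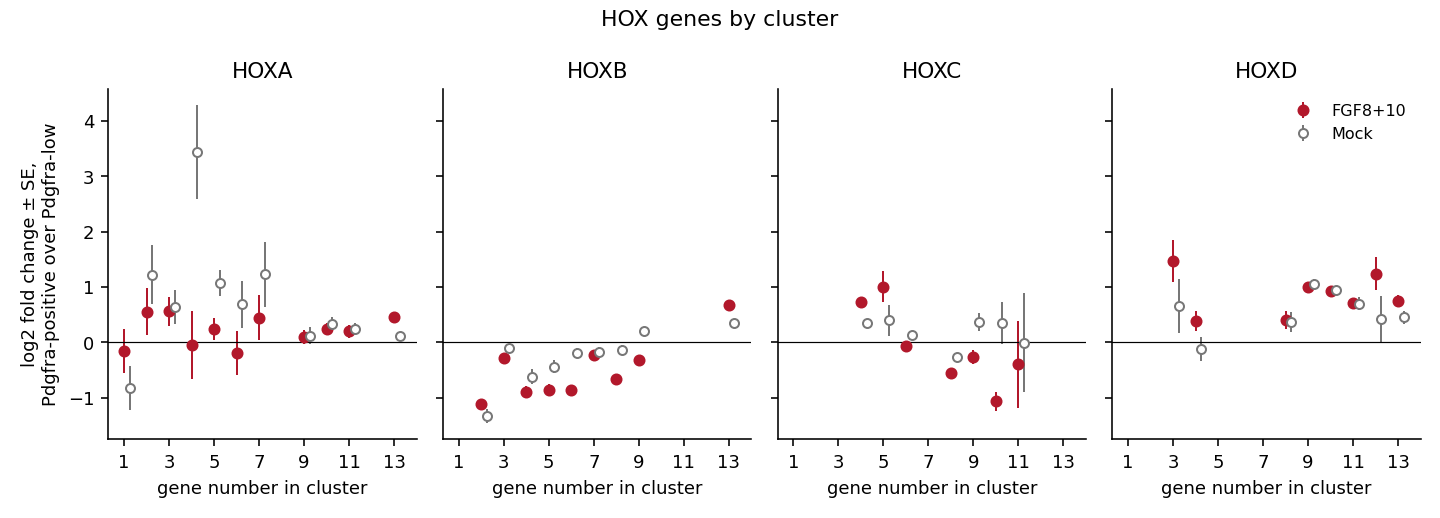
Log2 difference Pdgfra-positive minus Pdgfra-low (± SE) for each tested HOX gene, by number within the cluster; filled symbols are FGF8+10 and open symbols Mock. The HOXD genes lie above 0 and 8 of the 9 HOXB genes below it under FGF8+10.

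All 18 cholesterol synthesis and uptake genes tested were lower in Pdgfra-positive cells, with a median of -0.73 and a range from -1.08 for HMGCS1 to -0.33 for CYP51A1. The CYP51A1 call was lost without the second Pdgfra-positive (-0.19) or either Pdgfra-low library (-0.34 and -0.32). It was also lost with DESeq2 (-0.35) and under upper quartile scaling (-0.28), each of which called 17 of the list lower. HMGCS1, the synthase that makes HMG-CoA, measured 178 and 180.2 CPM against 372 and 386 CPM (-1.08 ± 0.026, adjusted p = 2.44e-33). DHCR7, a reductase of the last steps of the pathway, measured 54.3 and 54.4 CPM against 109 and 106 CPM (-0.98 ± 0.037, adjusted p = 5.42e-26). The Pdgfra-low libraries were about 2-fold above the Pdgfra-positive ones for both genes. Under Mock 0 of the 18 were lower and 10 were higher, median 0.13, and all 18 had a called interaction. HMGCS1 stood at 251 and 256 CPM against 227 and 233 CPM under Mock (interaction -1.22 ± 0.037, adjusted p = 6.90e-29). FASN, the fatty acid synthase, showed the same turn: 239 and 230.1 CPM against 498 and 489 CPM under FGF8+10 (-1.07 ± 0.024) and 507 and 489 CPM against 427 and 430.4 CPM under Mock (0.22 ± 0.024).

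Because these genes moved together, their promoters are shown. The sterol regulatory factors SREBF1 and SREBF2 act on such promoters together with the CCAAT-binding factor NF-Y. RefSeq windows (GRCh38.p14, 250 bases before to 50 after the gene start) were found for 13 of the 18 genes, 18 windows in all. The letters CCAAT on either strand occurred in 14 of these 18 windows, against 34.6% of all 35116 promoter windows of the same length. By gene, 12 of the 13 had a match in at least 1 window. Some windows of the same gene overlap, so the windows are not independent. The sterol element written as TCACNCCAC, on either strand, occurred in 0 of the 18 windows and in 1.13% of all windows. At so low a share, 0 in 18 windows does not set these promoters apart. The windows of the 4 genes with the largest difference among those found follow, 5′ to 3′ on the gene's strand, with CCAAT, or ATTGG where the match is on the other strand, in capitals.
HMGCS1, chr5:43313363-43313662, minus strand: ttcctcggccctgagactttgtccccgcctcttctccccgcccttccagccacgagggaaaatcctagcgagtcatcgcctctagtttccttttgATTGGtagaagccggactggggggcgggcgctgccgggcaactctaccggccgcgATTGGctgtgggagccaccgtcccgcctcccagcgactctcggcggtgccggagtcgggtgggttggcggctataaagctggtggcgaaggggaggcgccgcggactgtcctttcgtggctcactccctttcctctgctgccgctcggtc
DHCR7, chr11:71448344-71448643, minus strand: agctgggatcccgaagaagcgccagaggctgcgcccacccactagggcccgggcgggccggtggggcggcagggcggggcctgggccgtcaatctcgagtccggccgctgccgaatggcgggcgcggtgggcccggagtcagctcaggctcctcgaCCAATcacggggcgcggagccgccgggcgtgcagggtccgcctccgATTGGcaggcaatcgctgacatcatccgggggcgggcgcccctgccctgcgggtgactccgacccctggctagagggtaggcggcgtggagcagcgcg
MVD, chr16:88663042-88663341, minus strand: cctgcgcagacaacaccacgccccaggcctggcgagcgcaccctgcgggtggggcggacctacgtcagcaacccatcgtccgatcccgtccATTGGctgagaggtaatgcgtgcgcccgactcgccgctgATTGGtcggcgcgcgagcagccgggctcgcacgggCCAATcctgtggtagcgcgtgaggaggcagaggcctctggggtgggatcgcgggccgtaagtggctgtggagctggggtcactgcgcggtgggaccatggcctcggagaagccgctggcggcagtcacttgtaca
MSMO1, chr4:165327419-165327718, plus strand: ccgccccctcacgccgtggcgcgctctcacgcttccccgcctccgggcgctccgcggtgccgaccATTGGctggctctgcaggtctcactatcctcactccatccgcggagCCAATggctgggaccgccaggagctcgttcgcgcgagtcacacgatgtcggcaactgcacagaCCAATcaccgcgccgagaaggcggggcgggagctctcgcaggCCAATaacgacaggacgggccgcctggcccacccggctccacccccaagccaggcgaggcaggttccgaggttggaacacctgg
These windows hold 2, 2, 3 and 4 matches. The other window of HMGCS1 and that of DHCR7, not shown, each held 0. A match describes the letters and shows no binding.

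Genes of the cell cycle were also lower in Pdgfra-positive cells. Of 20 G1 and S phase genes 18 were lower and 0 higher, median -0.52, and of 20 G2 and M phase genes 19 were lower and 0 higher, median -0.59. CENPF, a kinetochore protein of mitosis, measured 244 and 249.9 CPM against 462 and 493 CPM (-0.95 ± 0.027, adjusted p = 2.04e-30). MKI67, the proliferation antigen, measured 291 and 287 CPM against 429 and 424 CPM (-0.56 ± 0.025, adjusted p = 2.76e-23), and MCM6, a subunit of the replicative helicase, 94.5 and 97.9 CPM against 165 and 159.6 CPM (-0.75 ± 0.036, adjusted p = 2.04e-22). None of the 3 overlapped. Under Mock the S phase genes were again lower for 16 of 20 (median -0.30), but the mitotic genes were lower for 10 and higher for 2 (median -0.11), and for 19 of 20 mitotic genes the difference was called lower under FGF8+10 than under Mock.

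Stress-related lists pointed the same way. Of 14 p53 targets 12 were lower and 1 higher, median -0.71. CDKN1A, the cyclin-dependent kinase inhibitor p21, measured 18.7 and 18.9 CPM against 96.2 and 95.8 CPM (-2.35 ± 0.053, adjusted p = 1.37e-34), and GDF15, a stress-induced secreted factor, 0.326 and 0.294 CPM against 8.6 and 9.58 CPM (-4.86 ± 0.25, adjusted p = 6.46e-21). Both were higher in each Pdgfra-low library, and both were also lower in Mock Pdgfra-positive cells (-1.35 and -2.58). Amino acid stress genes were lower for 12 and higher for 1 of 14, median -0.76. Both lists were also lower in the Mock arm. There 13 p53 targets were lower and 1 higher, median -0.44, and 14 amino acid stress genes were lower and 0 higher, median -0.47. The interaction was called negative for 6 and positive for 2 p53 targets, and for 7 and 3 amino acid stress genes. SLC7A5, a leucine transporter, measured 9.15 and 9.05 CPM against 47.2 and 47.7 CPM (-2.38 ± 0.047, adjusted p = 7.23e-37).

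Heat shock genes were lower for 11 and higher for 0 of 13, and for 8 under upper quartile scaling, where HSP90AB1 changed sign (0.01, not called). HSP90AA1, the inducible HSP90 form, measured 532 and 548 CPM against 1118 and 1122 CPM (-1.05 ± 0.021). Hypoxia and glycolysis genes were lower for 13 and higher for 3 of 20. In the Mock arm 10 of these were lower and 1 higher, median -0.33. Of the heat shock genes, 6 were lower and 2 higher there, median -0.12. SLC2A1, the glucose transporter GLUT1, measured 14.4 and 16.4 CPM against 62.5 and 62.1 CPM (-2.02 ± 0.045, adjusted p = 7.35e-35), and VEGFA was on the higher side (0.44 ± 0.036). The immediate early genes that dissociation can induce split 6 higher (33.3%) to 8 lower (44.4%) of 18. The shares were 30.1% and 38.6% of tested genes of at least 10 CPM. FOS (0.95 ± 0.03) and FOSB (1.82 ± 0.13) were higher and JUN (-0.86 ± 0.058) and ATF3 (-1.33 ± 0.079) lower in Pdgfra-positive cells. The part of cell handling in these differences was not tested.

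Secreted signals and their receptors followed no common direction. In the BMP pathway 6 of 10 response genes were lower and 2 higher: ID1 measured 14.1 and 14 CPM against 30.0 and 30.8 CPM (-1.11 ± 0.088) and ID3 48.6 and 51.8 CPM against 104 and 105 CPM (-1.05 ± 0.05), both inhibitors of bHLH factors and direct BMP targets. Of 17 BMP ligands and antagonists 7 were higher (41.2%) and 8 lower (47.1%), against 30.1% and 38.6% of tested genes of at least 10 CPM. BMP6 (-3.14 ± 0.26) and NOG, an antagonist (-1.33 ± 0.25), were lower and BMP5 (0.63 ± 0.04) was higher. Without the second Pdgfra-low library 5 BMP ligands and antagonists were lower, and without it or the first Pdgfra-positive library 1 response gene was higher. Under Mock ID1 differed by -0.01 ± 0.10 and ID3 by 0.28 ± 0.066.

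Among WNT feedback genes and antagonists 8 were higher and 8 lower of 23 (34.8% each), against 30.1% and 38.6% of tested genes of at least 10 CPM. The secreted antagonists SFRP1, at 291 and 298 CPM against 102 and 106 CPM (1.5 ± 0.035, adjusted p = 4.46e-34), and SFRP2 (1.69 ± 0.08) were higher in Pdgfra-positive cells. LGR5, the R-spondin receptor and WNT target, was lower at 12.3 and 11.7 CPM against 29.4 and 28.9 CPM (-1.28 ± 0.10, adjusted p = 1.83e-14), as was DKK1 (-0.51 ± 0.049). Hedgehog pathway genes were higher for 7 and lower for 1 of 12. The coreceptors CDON (0.60 ± 0.081) and GAS1 (0.57 ± 0.074) and the receptor PTCH1 (0.27 ± 0.047) were higher, and HHIP, a decoy receptor (-1.11 ± 0.15), lower. GAS1 turned sign between the arms, with -1.58 ± 0.071 under Mock (interaction 2.16 ± 0.10, adjusted p = 8.77e-22).

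Of 12 chemokine genes 5 were higher in Pdgfra-positive cells and 0 lower, or 1 lower without the second library of either population. CXCL12 measured 170.4 and 166 CPM against 90.3 and 90.6 CPM (0.90 ± 0.039, adjusted p = 1.23e-23), and its receptor CXCR4 91.7 and 91.9 CPM against 54.5 and 59.6 CPM (0.69 ± 0.054, adjusted p = 9.73e-15), so ligand and receptor were both higher in the same population. CXCL14 differed by 0.95 ± 0.02. The IGF list had 6 higher (46.2%) and 2 lower (15.4%) of 13, against 30.1% and 38.6% of tested genes of at least 10 CPM. IGFBP5 measured 124 and 127 CPM against 46 and 47.2 CPM (1.43 ± 0.04, adjusted p = 7.67e-31) and turned under Mock (-0.43 ± 0.041; interaction 1.86 ± 0.057), while IGFBP7 was lower (-1.02 ± 0.15). Among PDGF ligands PDGFC was higher (0.47 ± 0.079) and PDGFB, which vessels make to recruit mural cells, lower at under 1 CPM (-2.66 ± 0.73). The vessel growth factors VEGFC (0.85 ± 0.079) and PGF (0.76 ± 0.064) were higher in Pdgfra-positive cells.

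Among genes called at least 2-fold different, the 10 with the largest difference in CPM in the Pdgfra-positive direction included PDGFRA, CDH13 and SFRP1, given above, and IGFBP3, MFAP4 and LRRN1. IGFBP3, a binding protein of insulin-like growth factors, measured 7123 and 7162 CPM against 3363 and 3407 CPM (1.08 ± 0.013), and MFAP4, a microfibril-associated glycoprotein, 418 and 410.1 CPM against 153 and 151 CPM (1.44 ± 0.021). LRRN1, a leucine-rich repeat membrane protein, measured 548 and 539 CPM against 195 and 198 CPM (1.47 ± 0.023). For these 3 genes both Pdgfra-positive libraries were more than 2-fold above both Pdgfra-low libraries. By fold, SHOX2 was followed by SMOC1, a matricellular protein that modulates BMP signalling, at 76.3 and 74.1 CPM against 18.7 and 18.3 CPM (2.02 ± 0.059, adjusted p = 2.11e-30). DLG2, a synaptic scaffold (2.00), NELL2, a secreted neural protein (1.83), GRIK2, a kainate receptor (1.73), and SLITRK3, a synaptic adhesion protein (1.68), were among the next.

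In the other direction, under the same 2-fold limit, the 10 largest CPM differences included HSP90AA1, KRT8, HAPLN1, FASN and HMGCS1, given above, and TUBA1A, ANXA2 and MME. TUBA1A, an alpha-tubulin with near-identical paralogs, measured 244 and 241 CPM against 628 and 579.5 CPM (-1.32 ± 0.029). ANXA2, a membrane-binding annexin, differed by -1.68 ± 0.026 and MME, the surface peptidase neprilysin, by -1.55 ± 0.028. Exon length did not separate the called genes of at least 10 CPM strongly: median lengths were 5972 bases for the genes at least 2-fold higher, 5141 for those lower and 5892 for all 10179 such genes.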

How the data were processed

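Total RNA of the 8 sorted cell samples was made into RNA-seq libraries (NEBNext Ultra RNA, per the labels). The deposited values are raw read counts per gene name in 1 table. Per the file headers, the authors counted exons with featureCounts 2.0.3 on a GENCODE annotation, in paired mode, counting each mate and not using strand, with multi-mapping and multi-overlapping reads left out. The submitters' processing notes also name FastQC 0.11.8, HISAT2 2.1.0 and GRCh38. Near-identical paralogs, processed copies and overlapping or antisense genes are therefore uncertain.

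The counts as deposited went into edgeR 4.0.16 under R 4.3.3 (filterByExpr, TMM, glmQLFit over all 8 libraries with 4 group means, glmQLFTest, Benjamini-Hochberg, threshold 0.05), which left 22554 genes. Contrasts were Pdgfra-positive against Pdgfra-low under FGF8+10, the same under Mock, and their difference. A group at 0 counts was given a floor of 6 counts over its 2 libraries. In simulated counts of 21754 genes for the FGF8+10 comparison, changes were given only to genes with a mean of at least 1 CPM over the 8 libraries. There edgeR called in the right direction 41 of 62 genes changed 1.41-fold, 65 of 67 changed 2-fold and 70 of 71 changed 4-fold. Recovery of genes below that mean was not simulated, and 7403 of the 22554 tested genes were under 1 CPM in both FGF8+10 populations. Totals ranged from 47698561 to 64390444 counts, and 6 counts correspond to 0.0883 to 0.134 CPM.

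Gene lists and alternatives were chosen with earlier results of these data known. Genes were named by rule: the sort genes; the 15 largest folds and 10 largest CPM differences in each direction; up to 5 called members per list and direction; and the 5 largest interactions. Other members given (such as ERG, SOX7, SOX18, TEK, HAND2, TBX5, ETV1, ETV5, SPRY4, DUSP4, FGFR1, FGF10, COL3A1, ITGB1, SOX9, MKI67, HOXA13, HOXB13, HOXC8, CYP51A1, CDH1 and EPCAM) were chosen after their values were seen. Alternatives tried were other scalings and filters, DESeq2 1.42.0, limma-voom 3.58.1, the 4 FGF8+10 libraries alone, a replicate block and each library left out. Some members of the lists are counted in the totals and not reported here by name.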

Additional observations from a re-analysis of the deposited data

Results flagged for a closer look

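The sorted difference itself differed between FGF8+10 and Mock for 5862 genes by edgeR's interaction term, which is what sets the following genes apart. In each case the value is the log2 difference under FGF8+10 minus that under Mock. Genes with a negative value were SOX7 (-3.70), SOX18 (-3.06), ERG (-2.42), GIMAP4 (-6.02), MRC1 (-5.37), SHE (-4.33), ETV4 (-4.20), DUSP6 (-2.48), IGFBP7 (-2.16) and PDGFB (-4.70). All of these were called lower in Pdgfra-positive cells under FGF8+10 and higher under Mock.

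Among genes of at least 10 CPM in their highest group, KLHL14 (-6.50), PIK3CG (-6.34), GIMAP4, NTS (-5.06) and NR5A2 (-4.98) had the most negative values. KLHL14, a kelch protein, measured 21.2 and 24.6 CPM in FGF8+10 Pdgfra-positive and 19.3 and 20.6 CPM in Pdgfra-low libraries, and under Mock 1.84 and 2.03 CPM and 0.0329 and 0 CPM. NTS, the neuropeptide neurotensin, measured 2.25 and 2.12 CPM and 11 and 12 CPM, and under Mock 1.03 and 1.18 CPM and 0.181 and 0.165 CPM. For these 5 genes the Mock Pdgfra-low libraries measured at most 0.182 CPM, so the size of the values rests on few counts there.

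Positive values were SFRP5 (7.45), OSR2 (6.35), TMEM151A (4.32), CA12 (4.15) and CARNS1 (3.71). SFRP5 and OSR2 had 0 counts in the FGF8+10 Pdgfra-low libraries, so their fitted values depend on the prior count and are no bound. CA12, a membrane carbonic anhydrase, measured 0.977 and 1.12 CPM and 0.962 and 0.887 CPM under FGF8+10, and 2.42 and 2.74 CPM and 38.3 and 42.4 CPM under Mock. CARNS1, carnosine synthase, measured 1.35 and 0.972 CPM and 0.604 and 0.665 CPM, and 5.33 and 5.54 CPM and 38.2 and 40.2 CPM. For CA12, CARNS1 and TMEM151A the high libraries were the Mock Pdgfra-low ones.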

How the results depend on the processing

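Counts of called genes over the whole table stayed within 1.5 times their value under all alternatives run for them. Without 1 FGF8+10 library at a time, genes higher under FGF8+10 ranged from 3673 to 3824 and genes lower from 4193 to 4341. Without 1 Mock library at a time, 9227 to 9465 genes were called in that comparison. No gene called both with all libraries and under an alternative changed direction. Small list counts moved more. Besides the libraries named above, integrins had 1 higher gene with DESeq2 and limma-voom, chemokines 1 lower with limma-voom and with the FGF8+10 libraries alone, mesothelium 1 higher with those libraries alone and under the 1 CPM filter, simple epithelium 3 lower under that filter, and interferon and MHC genes 1 lower with DESeq2 and under that filter. Upper quartile scaling gave 2 higher genes each in endothelium, smooth muscle and HOXA. HOXA had 2 higher under the 1 CPM filter, and 3 with limma-voom and with the FGF8+10 libraries alone. HOXD had 6 higher with DESeq2, with RLE scaling and with no filter, and 8 with the FGF8+10 libraries alone. HOXB had 7 lower under upper quartile scaling. Hedgehog genes had 5 higher with DESeq2, 6 with RLE scaling and 8 under upper quartile scaling. Upper quartile scaling moved the share of calls that were higher from 47.5% to 55.4%, with 5192 higher and 4172 lower. Of single genes, HSP90AB1 changed sign under upper quartile scaling (0.010, adjusted p = 0.693). H19, whose Pdgfra-positive replicates disagreed (40.9 and 14 CPM), ranged from -0.79 to 0.76 when 1 library was left out, and WNT9A, mostly under 1 CPM, from -0.82 to 1.80; neither was called with all libraries.

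No shift shared by same-numbered libraries was seen: their deviations correlated between -0.012 and 0.019. These correlations cannot show whether same-numbered libraries came from the same differentiation or sort. With the replicate number as a block, 4382 genes were higher and 4850 lower under FGF8+10, 2779 and 3024 under Mock, and 2689 and 3135 in the difference. These counts stayed within 1.5 times those without the block. Depth limits genes under about 0.1 CPM, where 6 counts is the floor used.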

Other observations

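Further lists gave values outside the comparisons above. Of 17 interferon and MHC genes 10 were higher in Pdgfra-positive cells and 2 lower, among the higher ones IRF1, a transcription factor of the interferon response (0.83 ± 0.12), IFI6 (0.78 ± 0.13) and IFITM1 (0.68 ± 0.059). Notch genes split 4 higher (22.2%) and 6 lower (33.3%) of 18, against 19.6% and 21.7% of all tested genes. DLL4, the ligand of arterial endothelium (-2.57 ± 0.47), JAG1 (-0.80 ± 0.09) and HES1 (-0.89 ± 0.11) were lower. NOTCH2 (0.48 ± 0.024) and NOTCH3 (0.50 ± 0.028) were higher. Of 39 guidance genes 15 were higher (38.5%) and 13 lower (33.3%), against 30.1% and 38.6% of tested genes of at least 10 CPM. The class 3 semaphorins SEMA3E (-2.96 ± 0.36), SEMA3D (-1.78 ± 0.30) and SEMA3C (-1.56 ± 0.076) were lower, and ROBO2, a slit receptor (0.95 ± 0.079), was higher.

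Values of 6 imprinted genes, chosen after their values were seen and from no fixed list, follow. MAGEL2, from the imprinted region of chromosome 15, measured 95.3 and 94.8 CPM against 39.4 and 38.7 CPM (1.28 ± 0.05, adjusted p = 1.29e-25), and under Mock differed by 0.27 ± 0.054. DLK1, a paternally expressed membrane protein of chromosome 14, measured 150.0 and 148 CPM against 62 and 66.1 CPM (1.22 ± 0.035, adjusted p = 2.76e-30) and was lower under Mock (-0.46 ± 0.035; interaction 1.68 ± 0.05, adjusted p = 2.80e-29). NDN, a neighbour of MAGEL2, differed by 0.39 ± 0.039, IGF2 by 0.11 ± 0.019 and H19 by 0.18 ± 0.54 (adjusted p = 0.847). MEST, imprinted on chromosome 7, went the other way, 662 and 673 CPM against 1128 and 1118 CPM (-0.75 ± 0.021, adjusted p = 1.03e-30).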
